A study of Drosophila melanogaster with 32 samples.

Results

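Mirtrons are short introns that fold into a miRNA hairpin once they have been spliced out and debranched. They enter the miRNA pathway at the step of Dicer, without the cut by Drosha that releases other hairpins. Dicer then leaves a duplex of a 5p and a 3p arm, and 1 arm is kept in an Argonaute protein as the guide of the RNA-induced silencing complex (RISC). In *Drosophila* Ago1 holds most miRNAs and Ago2 holds small interfering RNAs and some miRNA arms, with a preference of Ago1 for guides that begin with U. Because the 3p arm of a mirtron ends where the intron ends, it usually carries the AG of the 3′ splice site.

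The mirtrons described here are the hairpins mir-1003, mir-1004, mir-1005, mir-1006, mir-1007, mir-1008, mir-1010, mir-1011, mir-1012, mir-1013, mir-1014, mir-1015, mir-1016 and mir-1017. Every arm of these 14 hairpins with at least 50 summed reads in the table of reads of up to 25 nt was taken. This gave 10 rows of 9 hairpins among 332 rows, of which 209 are miRNAs. There are 8 rows of 3p arms and 2 of 5p arms (miR-1004-5p and miR-1008-5p). No row fell under the minimum, and miR-1005, miR-1007, miR-1011, miR-1014 and miR-1016 had no row in that table.

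The reads come from RNA bound to Ago2 or to Ago1, precipitated with guinea pig antisera from lysates of 40 whole flies. The groups are dFOXO-null flies (wDah carrying the foxo deletion Δ94, made by imprecise excision of a P element and backcrossed to wDah) and wDah flies, each as females and males of 35 d and of 5 d. All flies share the white-eyed Dahomey background, and each library pools 40 flies of 1 sex. Each of the 16 groups has 2 libraries, which are the labels' experiments 1 and 2, so 16 Ago2 and 16 Ago1 libraries were analysed. Values are reads per 1000000 mapped reads (RPM) unless stated otherwise.

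The sequences are shown because the members share a shape and not a sequence. Each is the annotated mature miRNA from RefSeq (release 6, the dm6 build), 5′ to 3′, with the seed (bases 2 to 8) in capitals.

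miR-1003-3p: uCUCACAUuuacauauucacag

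miR-1004-3p: uCUCACAUcacuucccucacag

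miR-1004-5p: gUUGGGGGacauugaucucggag

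miR-1006-3p: uAAAUUCGauuucuuauucauag

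miR-1010-3p: uUUCACCUaucguuccauuugcag

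miR-1012-3p: uUAGUCAAagauuuuccccauag

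miR-1013-3p: aUAAAAGUaugccgaacucg

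miR-1015-3p: uCCUGGGAcaucucucuugcag

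miR-1017-3p: gAAAGCUCuacccaaacucaucc

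Only miR-1003-3p and miR-1004-3p share a seed among these rows. Outside them, the seed of miR-1006-3p is also that of miR-10-3p, and the seed of miR-1008-5p that of miR-2279-5p, among the 195 miRNA rows with a sequence. Of the 8 member 3p rows, 6 (75%) end in AG, against 8 of 84 other 3p rows (9.52%). The exceptions are miR-1013-3p, annotated to stop 3 nt before the end of its intron, and miR-1017-3p.

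The whole intron shows how an arm sits at the splice site. The intron of SKIP, a gene for a protein that binds the Shal potassium channel, is 71 nt long at chr3R:22292879-22292949 (plus strand), and miR-1010-3p (capitals) is its last 24 nt.

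mir-1010 intron: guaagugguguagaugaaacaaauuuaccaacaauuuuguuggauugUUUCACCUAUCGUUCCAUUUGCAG

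The intron of CG43707 is 68 nt long at chr2L:3767621-3767688 (plus strand), and there the 5p arm (capitals) is the first 23 nt and the 3p arm the last 22 nt.

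mir-1004 intron: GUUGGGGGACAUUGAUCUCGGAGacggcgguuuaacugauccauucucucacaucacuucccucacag

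In mir-1017 only 1 end is a splice site. Its intron, in the gene of the nicotinic acetylcholine receptor subunit nAChRalpha2 at chr3R:24488612-24488780 (plus strand), is 169 nt long, and 98 nt of it follow the hairpin. The other members lie in introns of CG6695 (mir-1003, chr3R:24658605-24658660), VhaSFD (mir-1006, chr2L:16724795-16724858), Lerp (mir-1012, chr3R:26861349-26861407), wts (mir-1013, chr3R:30791636-30791696), CG6432 (mir-1015, chr3R:24339232-24339295) and CG18004 (mir-1008, on chromosome arm 2R, whose sequence is not shown here). VhaSFD encodes a subunit of the vacuolar proton pump, Lerp a receptor for lysosomal enzymes, and wts the Warts kinase of the Hippo pathway. Both hairpin ends lay within 3 nt of the ends of an annotated intron for 9 of 10 member rows, against 3 of 185 other miRNA rows (1.62%). Those other rows are miR-1009-3p in CG3860, miR-2535b-3p in Abca3 and miR-4919-3p in Cyp4aa1.

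The libraries differed in depth, which sets what can be read from them. Ago2 libraries held 30604 to 561722 mapped reads (median 111162) and Ago1 libraries 838988 to 5398798 (median 2381815). A count of 0 allows up to 98.0 RPM in the shallowest Ago2 library and up to 3.58 RPM in the shallowest Ago1 library, which covers counting error only. miRNAs made up 55.5 to 96.0% of the mapped reads in Ago2 libraries and 98.6 to 99.8% in Ago1 libraries. Ovary miRNAs (3 of 3 rows listed) summed to 12102 to 52210 RPM in female Ago1 libraries and 9.09 to 91.6 RPM in male ones. The rows listed for testis (22 rows) summed to 189 to 400 RPM in females and 993.1 to 1697 RPM in males. That list was taken by ranges of hairpin number. It includes miR-993-5p (5217 summed reads) and miR-993-3p (3273 summed reads), and whether these come from testis was not tested. The loss of foxo could not be checked here, since no foxo transcript is among the rows used.

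The mirtrons were rare in both precipitates and were led by 1 arm. The 10 rows held 24333 reads, 1044 in Ago2 and 23289 in Ago1, which is 0.0519% of the miRNA reads of Ago2 and 0.0551% of those of Ago1. miR-1010-3p gave 10613 of these reads, miR-1015-3p 4471 and miR-1012-3p 3361. The others ranged from 1526 reads for miR-1006-3p to 160 for miR-1008-5p. In Ago1 the 10 rows together came to 286 to 1441 RPM (median 539), and in Ago2 to 192 to 767 RPM (median 385).

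miR-1010-3p spanned 48.8 to 967 RPM in Ago1 libraries (median 228). miR-1015-3p (41.2 to 198, median 84.1) and miR-1012-3p (26.9 to 210, median 81.6) overlapped each other over most of their ranges. miR-1006-3p (median 35.7) and miR-1003-3p (median 34.5) formed the next step. Then came miR-1013-3p (median 16.4), miR-1017-3p (11.2), miR-1004-5p (9.89) and miR-1004-3p (9.51), with overlapping ranges. miR-1008-5p was lowest, at 0.353 to 6.97 RPM (median 2.49), which is at most 28 reads in a library.

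**Figure D1:**
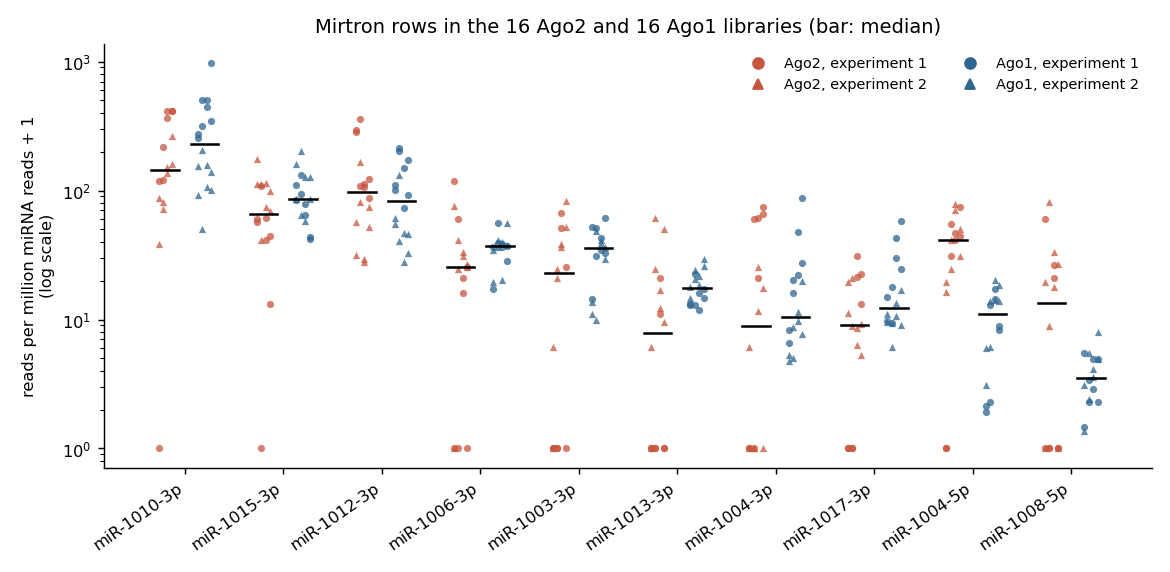
Mirtron reads relative to miRNA reads (RPM of miRNA reads, plus 1, log scale) in the 16 Ago2 and 16 Ago1 libraries, with bars at the medians, circles for experiment 1 and triangles for experiment 2. miR-1010-3p is the highest row, and the points at 1 are libraries with 0 reads. In pairs of precipitates of 1 group and experiment, miR-1004-5p is higher in Ago2 in 14 of 16 and miR-1008-5p in 9 of 16.

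The comparison of the precipitates asks which arms sit in which RISC. Relative to all mapped reads, the 5p arm of mir-1004 was higher in Ago2 RISC than in Ago1 RISC and 5 of the 3p arms were lower. In edgeR's quasi-likelihood test over all 32 libraries, 6 of 10 rows were called (adjusted p under 0.05), beside 43.3% of 194 miRNA rows tested. One row (1 of 10) was higher, beside 25.3% of all rows, and 5 were lower, beside 18% of all rows. The filter on low counts took the mean over both precipitates. Of the rows called lower, miR-1003-3p, miR-1006-3p and miR-1013-3p held 73, 51 and 28 reads in Ago2 and 1337, 1475 and 793 in Ago1. They therefore passed the filter only through the deeper Ago1 libraries, where they are high. The median log2 ratio of Ago2 over Ago1 was -1.06 over the members and -0.23 over the miRNA rows.

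miR-1004-5p was found at 0 to 73.0 RPM (median 30.3) in Ago2 libraries and at 0.918 to 19.1 RPM (median 9.89) in Ago1 libraries. Its log2 ratio was 1.81 ± 0.40 (SE, edgeR adjusted p = 0.00032), and relative to miRNA reads it was higher in Ago2 in 14 of 16 pairs of precipitates of 1 group and experiment. Within experiment 1 the ratio was 1.96 ± 0.58 (edgeR adjusted p = 0.0056) and within experiment 2 it was 1.64 ± 0.33 (edgeR adjusted p = 0.00016). The fits within 1 experiment had additive terms for the factors instead of group means. In males the row was at 28.9 to 73.0 RPM in Ago2 and 7.21 to 19.1 RPM in Ago1 libraries, without overlap. In females the ranges overlapped, at 0 to 32.7 RPM in Ago2 and 0.918 to 12.8 RPM in Ago1 libraries. In the fit of group means the call depended on the sparse female Ago2 libraries, of which 2 had 0 reads. Without the dFOXO-null female Ago2 library of 5 d and experiment 2 the ratio was 0.98, and without the wDah one it was 0.99, both no longer called. In each case this leaves a group with 1 library of 0 reads.

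The other arm of the hairpin was not called. miR-1004-3p was found at 0 to 62.2 RPM (median 5.67) in Ago2 libraries and at 3.74 to 87.0 RPM (median 9.51) in Ago1 libraries, with a log2 ratio of -1.57 ± 1.36 (edgeR adjusted p = 0.34).

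Among the 3p arms, miR-1006-3p had 0 to 65.0 RPM (median 21.9) in Ago2 libraries and 16.1 to 54.8 RPM (median 35.7) in Ago1 libraries. Its log2 ratio was -1.55 ± 0.40 (edgeR adjusted p = 0.0017). Both dFOXO-null female Ago2 libraries of 5 d held 0 reads of this row, so the ratio averages over a group without reads. The mean was 21.5 RPM in Ago2 and 34.7 RPM in Ago1 libraries. Relative to miRNA reads the log2 ratio of the means was -0.19, and the row was higher in Ago2 in 5 of 16 pairs. miR-1010-3p had 0 to 386 RPM (median 120) in Ago2 libraries and 48.8 to 967 RPM (median 228) in Ago1 libraries, a log2 ratio of -1.22 ± 0.40 (edgeR adjusted p = 0.011). miR-1015-3p had 0 to 113 RPM (median 60.9) in Ago2 libraries and 41.2 to 198 RPM (median 84.1) in Ago1 libraries, a log2 ratio of -0.78 ± 0.29 (edgeR adjusted p = 0.024). The ranges of all these arms overlapped between the precipitates. miR-1003-3p (-1.64 ± 0.62, edgeR adjusted p = 0.027) and miR-1013-3p (-1.50 ± 0.59, edgeR adjusted p = 0.033) were also lower. Their medians were 15.2 and 5.78 RPM in Ago2 libraries and 34.5 and 16.4 RPM in Ago1 libraries. Both wDah female Ago2 libraries of 5 d held 0 reads of miR-1003-3p.

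These calls for 3p arms were uneven between the experiments and libraries. The ratios within 1 experiment come from the additive fits, so they are not on a par with those of the group means. Within experiment 1 miR-1010-3p was at -1.21 (edgeR adjusted p = 0.0054) and miR-1015-3p at -1.12 (edgeR adjusted p = 0.015), and within experiment 2 they were at -0.41 (edgeR adjusted p = 0.36) and -0.49 (edgeR adjusted p = 0.10). miR-1006-3p was called in neither experiment alone, at -0.96 in experiment 1 (edgeR adjusted p = 0.084) and -0.65 in experiment 2 (edgeR adjusted p = 0.17). The calls of miR-1003-3p and miR-1013-3p were lost without either of the female Ago2 libraries named for miR-1004-5p. That of miR-1013-3p was also lost without the wDah female Ago1 library of 35 d or the wDah male Ago2 library of 5 d, both of experiment 2. That of miR-1015-3p was lost without the dFOXO-null male Ago1 library of 35 d and experiment 2 (-0.65) or the wDah female Ago2 library of 35 d and experiment 1 (-0.67).

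miR-1012-3p had medians of 72.9 RPM in Ago2 libraries and 81.6 RPM in Ago1 libraries in this table, and a log2 ratio of -0.23 ± 0.39 (edgeR adjusted p = 0.67, a 1-SE range that spans 0). miR-1017-3p gave -0.89 ± 0.45 (edgeR adjusted p = 0.097), with -1.24 ± 0.49 within experiment 1 alone (edgeR adjusted p = 0.034). The ratio of miR-1008-5p could not be estimated in the fit of group means, where its SE was 8.70, because some Ago2 groups had 0 reads. In a fit with additive terms for the factors, chosen after seeing the data, it was 2.20 ± 0.47 (edgeR adjusted p = 8.8e-05), and relative to miRNA reads the row was higher in Ago2 in 9 of 16 pairs.

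The directions depend on the scaling. With miRNA reads as the library size the median miRNA row stood at 0.19 and 2 rows were called, miR-1004-5p (2.21) higher and miR-1006-3p (-1.23) lower. With TMM factors the median was -1.95, and with DESeq2 it was -1.41. Under both of these 8 rows were lower and 0 higher, with miR-1004-5p at 0.06 and 0.43. Relative to the median miRNA row of each fit, miR-1004-5p stood 1.84 to 2.04 higher under all 4 scalings, and miR-1006-3p 1.02 to 1.42 lower (-1.42 to -1.02). All 4 fits include the Ago2 group in which miR-1006-3p had 0 reads. The relative value of miR-1010-3p was -1.35 to -0.97 and that of miR-1012-3p -0.37 to 0.01.

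The share of a row's reads that came from Ago2, which needs no scaling between rows, was higher for the 5p members than for the 3p members. Ago2 libraries gave 4.54% of all miRNA reads. They gave 18.6% of the reads of miR-1004-5p (99 of 533) and 21.9% of those of miR-1008-5p (35 of 160), and 3.004% (miR-1017-3p) to 5.82% (miR-1004-3p) of those of the 3p members. Without the Ago2 library of wDah males of 5 d and experiment 2 the share was 11.8% for miR-1004-5p (58 of 492) and 17.2% for miR-1008-5p (26 of 151). That library was the deepest of Ago2, with 561722 mapped reads. The shares of all miRNA reads and of other rows given here still include it, so they are not on a par with these 2 values. Other 5p rows had a median of 7.53% (105 rows), and 20 of them exceeded miR-1004-5p. Other 3p rows had a median of 5.04% (94 rows), and 81 of them exceeded miR-1017-3p. Both 5p members begin with G. The median of the 10 other 5p rows that begin with G was 19.2%, between the values of the 2 members, and that of the 47 other 5p rows that begin with U was 5.95%.

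Of the reads of mir-1004 summed over libraries, 99 of 142 in Ago2 (69.7%) and 434 of 1130 in Ago1 (38.4%) came from the 5p arm. The library of wDah males of 5 d and experiment 2 gave 41 of the 99. Only 4 Ago2 libraries, all male, held 10 or more reads of the hairpin. Their 5p shares were 42.9, 50.0, 75.9 and 86.7% (mean 63.9 ± 20.8, SD, n = 4), against 7.66 to 66.0% (mean 38.6 ± 21.3, SD, n = 16) in Ago1 libraries. The difference was 25.3 percentage points (exact permutation test, two-sided p = 0.046), and the shares overlapped. Against the 4 Ago1 libraries matched to them by group and experiment it was 25.1 points, in 4 of 4 pairs (exact sign-flip test, p = 0.125, the smallest 4 pairs allow). Against male Ago1 libraries alone it was 21.9 points (exact permutation p = 0.125).

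The 5p share also differed between the experiments. In Ago1 it was 35.7 to 66.0% in experiment 2 and 7.66 to 43.3% in experiment 1, higher in experiment 2 in 8 of 8 pairs. Summed over Ago1 libraries, 318 of 549 reads (57.9%) were 5p in experiment 2 and 116 of 581 (19.97%) in experiment 1, so the 5p arm was the larger part of the Ago1 reads in experiment 2. The difference between Ago2 and Ago1 was 25.4 points within experiment 2 and 25.1 points within experiment 1. Each value sets 2 male Ago2 libraries against 8 Ago1 libraries of both sexes, and neither was tested.

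**Figure D2:**
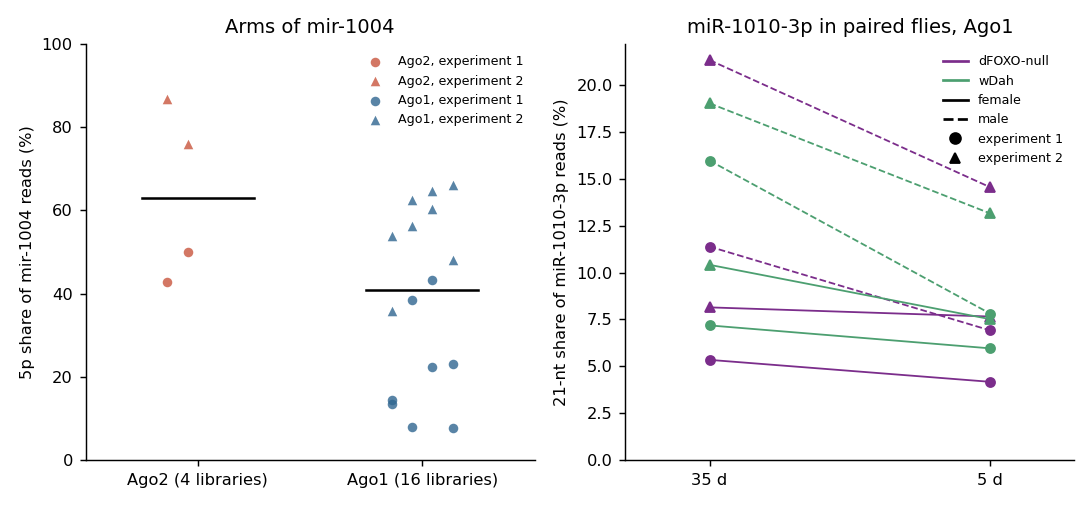
Left, the percent of mir-1004 reads from the 5p arm in the 4 Ago2 and 16 Ago1 libraries with at least 10 reads of the hairpin (bars, medians); right, the percent of miR-1010-3p reads that were 21 nt long in Ago1, with lines joining 35 d and 5 d flies of 1 genotype, sex and experiment. The Ago2 points reach 86.7% and the highest Ago1 point is at 66.0%, and all 8 lines are higher at 35 d.

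In the fits of abundance, of sex, age and genotype only sex gave called members. In Ago1, both arms of mir-1004, miR-1017-3p and miR-1008-5p were lower in females than in males. In edgeR's quasi-likelihood test 4 of 10 rows were called, beside 49.7% of 199 miRNA rows tested. All 4 were lower in females, beside 27.6% of all rows. Of these, miR-1008-5p passed the filter on low counts through the males. Since whole flies were used, fewer cells of a type and less RNA per cell cannot be told apart. The ovary and testis miRNAs differed between the same libraries, and their part in these results was not tested.

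miR-1004-3p had 3.74 to 19.1 RPM (median 6.36) in female Ago1 libraries and 6.67 to 87.0 RPM (median 19.98) in male ones, and was lower in females in 8 of 8 pairs of 1 genotype, age and experiment. The log2 ratio was -1.71 ± 0.51 (edgeR adjusted p = 0.0093), with -2.06 in experiment 1 (edgeR adjusted p = 0.0071) and -1.17 in experiment 2 (edgeR adjusted p = 0.028). miR-1004-5p had 0.918 to 12.8 RPM (median 3.51) in female libraries and 7.21 to 19.1 RPM (median 13.2) in male ones, with a log2 ratio of -1.78 ± 0.40 (edgeR adjusted p = 0.00097). Within the experiments the ratio was -2.01 in experiment 1 (edgeR adjusted p = 0.060) and -1.52 in experiment 2 (edgeR adjusted p = 0.0067). Its 2 highest female libraries, at 11.9 and 12.8 RPM, were the wDah females of 35 d, and the other female libraries were at or below 5.11 RPM. The 2 arms of this hairpin therefore differed between the sexes in 1 direction.

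miR-1017-3p had 5.11 to 16.7 RPM (median 8.5997) in female Ago1 libraries and 7.96 to 57.3 RPM (median 19.8) in male ones, lower in females in 8 of 8 pairs (log2 ratio -1.27 ± 0.43, edgeR adjusted p = 0.018). The difference was -1.66 in experiment 1 (edgeR adjusted p = 0.010) and -0.54 in experiment 2 (edgeR adjusted p = 0.31). The call was lost when any of 5 of the 16 libraries was left out, with ratios of -1.16 to -0.97. These were the dFOXO-null males of 35 d and of 5 d and the wDah males of 35 d and of 5 d of experiment 1, and the wDah females of 35 d of experiment 2. miR-1008-5p passed the filter on low counts through the males, with 94 reads in all male Ago1 libraries and 31 in all female ones. Its place among the rows tested in Ago1 thus depends on the sex where it is high. miR-1008-5p had 0.353 to 4.48 RPM (median 1.75) in female libraries and 1.27 to 6.97 RPM (median 3.50) in male ones (log2 ratio -1.06 ± 0.40, edgeR adjusted p = 0.033), and this call was lost in 9 of the 16 fits that left out a library, where the ratio was -0.63 without the wDah males of 35 d and experiment 2 and was -1.10 to -0.94 without the others.

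The more abundant members did not follow. miR-1010-3p had 48.8 to 498 RPM (median 228) in female Ago1 libraries and 99.8 to 967 RPM (median 251) in male ones (log2 ratio -0.56 ± 0.52, edgeR adjusted p = 0.36). miR-1012-3p (medians 105 RPM in females and 58.8 RPM in males) and miR-1015-3p (101 RPM in females and 69.99 RPM in males) were higher in females in 7 of 8 pairs each, with log2 ratios of 0.52 ± 0.45 and 0.53 ± 0.31 that were not called (edgeR adjusted p = 0.33 and 0.15). With the replicate number as a block 7 rows were called. Those then included miR-1012-3p (0.61, edgeR adjusted p = 0.032) and miR-1015-3p (0.57, edgeR adjusted p = 0.040) as higher in females and miR-1003-3p (-0.79, edgeR adjusted p = 0.023) as lower. The direction of miR-1012-3p and miR-1015-3p depends on the table. In the table of reads mapped to dm6, mir-1012 had a log2 ratio of -0.57 ± 0.41 (edgeR adjusted p = 0.29) and mir-1015 one of -0.75 ± 0.40 (edgeR adjusted p = 0.14), both on the side of lower in females.

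TMM factors moved the median miRNA row to -0.79 and DESeq2 moved it to -0.75, against -0.25 with the total of mapped reads, and called 6 and 8 rows, all lower in females. Relative to the median row, the 4 called rows stood lower in females under all 4 scalings, miR-1004-3p at -1.52 to -1.42, miR-1004-5p at -1.54 to -1.53, miR-1017-3p at -1.08 to -0.98 and miR-1008-5p at -0.84 to -0.80. miR-1012-3p (0.71 to 0.80) and miR-1015-3p (0.77 to 0.79) stood above it.

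**Figure D3:**
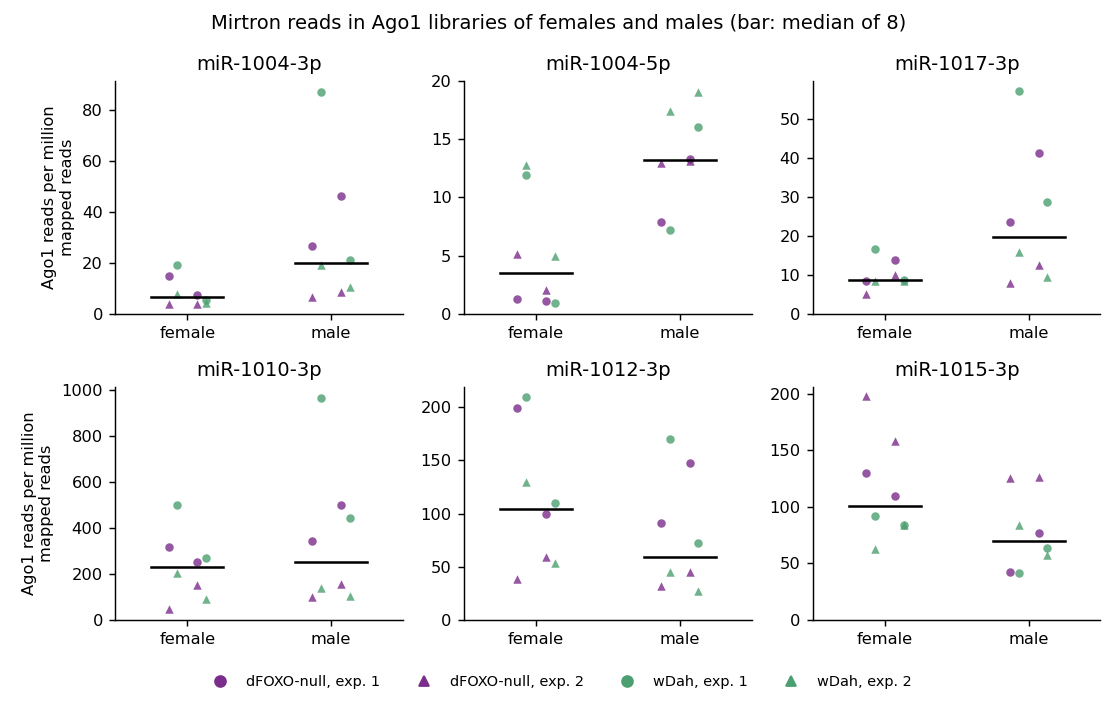
RPM of 6 mirtron rows in Ago1 libraries of females (left) and males (right), with bars at the medians of 8 libraries; within each sex the left points are 35 d and the right points 5 d flies. In miR-1004-3p, miR-1004-5p and miR-1017-3p the female medians (6.36, 3.51 and 8.5997) lie below the male medians (19.98, 13.2 and 19.8), while in miR-1012-3p and miR-1015-3p the female medians are the higher ones.

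In Ago2 only 4 member rows averaged the 5 reads needed for the test. Of these 2 of 4 were called as lower in females, beside 60.9% of 138 miRNA rows called and 34.1% called as lower. miR-1010-3p had 0 to 131 RPM (median 55.9) in female Ago2 libraries and 112 to 386 RPM (median 267) in male ones, lower in females in 8 of 8 pairs (log2 ratio -2.22 ± 0.49, edgeR adjusted p = 0.00077). The ratio was -2.36 within experiment 1 (edgeR adjusted p = 0.0045) and -1.73 within experiment 2 (edgeR adjusted p = 0.0031). The female values rest on 0 to 17 reads a library. miR-1004-5p passed the filter through the males, with 88 reads in all male Ago2 libraries and 11 in all female ones. Its place among the tested rows thus depends on the sex where it is high. It had 0 to 32.7 RPM (median 13.9) in female Ago2 libraries and 28.9 to 73.0 RPM (median 44.3) in male ones (log2 ratio -1.73 ± 0.50, edgeR adjusted p = 0.0052). Without the 4 shallow female libraries of experiment 1 it was -1.59 (edgeR adjusted p = 0.074). TMM factors moved the median miRNA row of this comparison to -1.81, against -0.26. Relative to the median row, miR-1010-3p stood at -1.97 to -1.86 and miR-1004-5p at -1.51 to -1.39 under all 4 scalings.

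The sex difference of miR-1010-3p was thus called in Ago2 and not in Ago1, so the difference of these differences was tested. It was -1.67 ± 0.80 on the log2 scale (Ago2 minus Ago1, edgeR adjusted p = 0.19, unadjusted p = 0.047). None of the members passed (0 of 10 with edgeR, beside 10.3% of 194 miRNA rows), and 2 had an unadjusted p under 0.05. The SE was 17.8 for miR-1004-5p and 1255 for miR-1008-5p, so these rows are not read as showing no difference. miR-1003-3p was nearest, at -3.49 ± 1.21 (edgeR adjusted p = 0.077), with 0 reads in 5 of 8 female Ago2 libraries.

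Age asks whether the load of mirtrons in RISC changes between flies of 35 d and of 5 d. None of the 10 rows was called in Ago1 (0 of 10 with edgeR, 0 at an unadjusted p under 0.05 and 0 with DESeq2), beside 2.01% of 199 miRNA rows. The log2 ratios of 35 d over 5 d ran from -0.04 ± 0.42 for miR-1017-3p to 0.79 ± 0.51 for miR-1004-3p, with a median of 0.45 over the members and 0.13 over the miRNA rows. miR-1010-3p had 48.8 to 967 RPM (median 259) at 35 d and 89.3 to 499 RPM (median 205) at 5 d, with a log2 ratio of 0.32 ± 0.52 (edgeR adjusted p = 0.85). In Ago2 none of the 4 tested rows was called (0 of 4 with edgeR, 0 at an unadjusted p under 0.05 and 0 with DESeq2), beside 0% of 138 rows.

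The age effect was then compared between the genotypes. In Ago1 none of the 10 rows was called in that test (0 of 10 with edgeR, beside 0% of 199 rows), and 2 had an unadjusted p under 0.05. The difference (dFOXO-null minus wDah) had a median of -1.23 on the log2 scale over the members and -0.35 over the miRNA rows. It was -1.83 ± 0.72 for miR-1003-3p (unadjusted p = 0.023, edgeR adjusted p = 0.79). In that row the dFOXO-null females had 29.8 and 8.80 RPM at 35 d and 51.1 and 12.5 RPM at 5 d, while the wDah females had 50.1 and 46.7 RPM at 35 d and 13.3 and 9.89 RPM at 5 d. The dFOXO-null males had 32 and 28.2 RPM at 35 d and 41.9 and 40.2 RPM at 5 d, and the wDah males 60.3 and 35.3 RPM at 35 d and 33.7 and 38.2 RPM at 5 d. Within each of the experiments, both sexes of dFOXO-null flies were thus lower at 35 d, and 3 of the 4 wDah pairs were higher. With the replicate number as a block 6 rows had an unadjusted p under 0.05 and 0 were called. Between the sexes the age effect also differed in 0 of 10 rows with edgeR (beside 0% of 199 rows), with 1 row at an unadjusted p under 0.05, miR-1004-5p (1.95 ± 0.79, female minus male).

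Loss of dFOXO, the transcription factor that insulin signalling restrains, left no mirtron row past the threshold. In Ago1 0 of 10 rows were called with edgeR and 0 with DESeq2, beside 1.01% of 199 miRNA rows, and 1 row had an unadjusted p under 0.05. That row was miR-1015-3p, with 42.7 to 198 RPM (median 126) in dFOXO-null libraries and 41.2 to 91.8 RPM (median 73.4) in wDah libraries. It was higher in dFOXO-null flies in 8 of 8 pairs, with a log2 ratio of 0.74 ± 0.31 (unadjusted p = 0.031, edgeR adjusted p = 0.30). The ratio was 0.32 ± 0.33 within experiment 1 (edgeR adjusted p = 0.72) and 1.05 ± 0.39 within experiment 2 (edgeR adjusted p = 0.23).

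In Ago2 the same row had 31.9 to 113 RPM (median 71.3) in dFOXO-null libraries and 0 to 69.4 RPM (median 32.2) in wDah libraries, higher in 7 of 8 pairs (log2 ratio 0.98 ± 0.49, edgeR adjusted p = 0.57). None of the 4 tested Ago2 rows was called (0 of 4 with edgeR, 0 at an unadjusted p under 0.05 and 0 with DESeq2), beside 0% of 138 rows. miR-1006-3p averaged under 5 reads in Ago2 and was not among them. It had 0 to 24.1 RPM (median 7.05, 15 reads in all) in dFOXO-null libraries and 15.9 to 65.0 RPM (median 28.1, 36 reads in all) in wDah libraries, lower in dFOXO-null flies in 8 of 8 pairs. Without the filter on low counts its log2 ratio was -2.04 ± 0.65 (edgeR adjusted p = 0.19, with an unadjusted p under 0.05), and miR-1008-5p was the other row with an unadjusted p under 0.05 (-2.71 ± 0.95, edgeR adjusted p = 0.25). The other member log2 ratios in Ago1 ran from -0.84 ± 0.39 for miR-1004-5p to 0.49 ± 0.40 for miR-1008-5p.

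**Figure D4:**
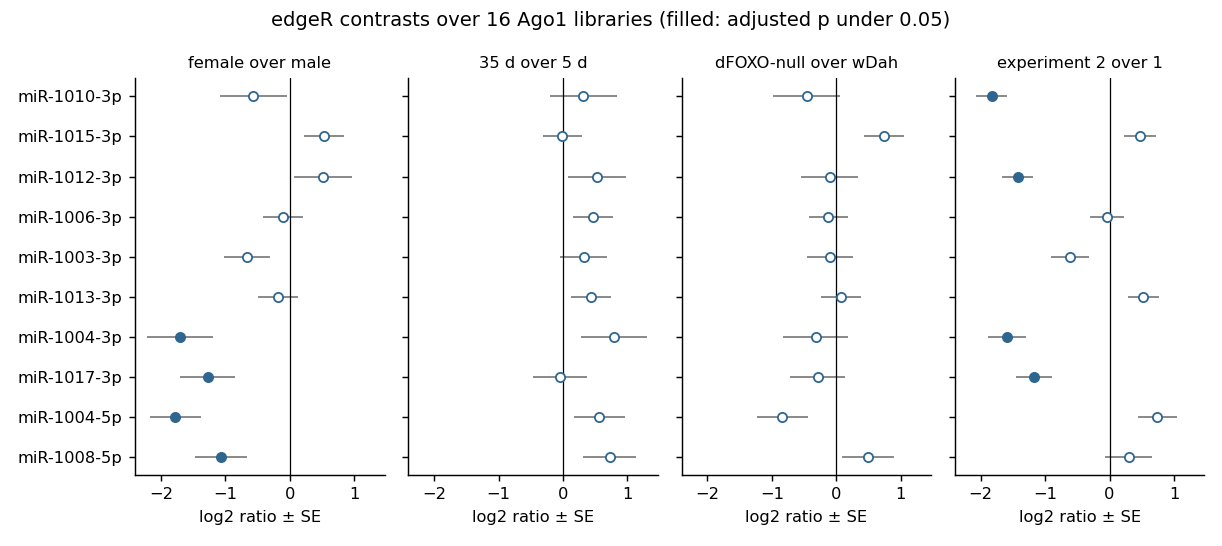
Log2 ratios ± SE of the 10 mirtron rows in Ago1 for females over males, 35 d over 5 d, dFOXO-null over wDah and experiment 2 over experiment 1 (edgeR, 16 libraries, filled circles past an adjusted p of 0.05). Filled circles appear in the contrasts of sex (4 rows, all below 0) and experiment (4 rows, all below 0) and in neither of the other contrasts.

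In Ago1 libraries the log2 ratios of miR-1010-3p and miR-1012-3p between the replicate experiments were larger in size than those for sex, age or genotype. This comparison was chosen after seeing the data. The 10 rows together came to 286 to 538 RPM in experiment 2 and 539 to 1441 RPM in experiment 1 of Ago1, without overlap. In edgeR 4 of 10 rows were called, beside 48.2% of 199 miRNA rows, all 4 lower in experiment 2, beside 27.1% of all rows. miR-1010-3p had 48.8 to 203 RPM (median 122) in experiment 2 and 253 to 967 RPM (median 393) in experiment 1, with a log2 ratio of -1.83 ± 0.24 (edgeR adjusted p = 3.05e-05). miR-1004-3p (-1.59 ± 0.29), miR-1012-3p (-1.43 ± 0.25) and miR-1017-3p (-1.18 ± 0.28) were lower as well. miR-1004-5p (0.74 ± 0.30), miR-1013-3p (0.52 ± 0.24) and miR-1015-3p (0.47 ± 0.25) ran the other way and were not called. The arms of mir-1004 thus stood on opposite sides of 0.

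In Ago2 2 of 4 rows were called between the experiments, beside 26.1% of 138 miRNA rows. miR-1012-3p was lower in experiment 2 (-1.45 ± 0.39, edgeR adjusted p = 0.027). miR-1010-3p was not called there (-0.96 ± 0.36, edgeR adjusted p = 0.089), and its log2 ratio for sex in Ago2 was the larger one in size. miR-1015-3p was higher in experiment 2, at 27.7 to 113 RPM (median 73.4) against 0 to 65.4 RPM (median 32.2) in experiment 1 (1.19 ± 0.36, edgeR adjusted p = 0.036), in 8 of 8 pairs.

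As a description of which rows varied alike, log2(RPM + 1) of miR-1010-3p over the 16 Ago1 libraries was set against that of 109 other miRNA rows averaging at least 100 reads. miR-14-3p (Pearson r = 0.94), miR-8-5p (0.87) and miR-927-5p (0.86) were nearest. Among the members r was 0.82 for miR-1017-3p, 0.82 for miR-1012-3p and 0.81 for miR-1004-3p, and it was -0.55 for miR-1013-3p and -0.58 for miR-1015-3p. These libraries share the split by experiment described above.

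The share of 21-nt reads differed between the arms. Of the reads of up to 25 nt summed over Ago1 libraries, 21-nt reads made up 6.41% for miR-1015-3p, 11.4% for miR-1010-3p, 15.9% for miR-1004-5p, 23.9% for miR-1012-3p, 38.5% for miR-1017-3p, 41.2% for miR-1003-3p and 44.8% for miR-1006-3p. For miR-1008-5p all 125 of 125 reads were 21 nt (exact 95% interval from 97.1%). The median over 156 miRNA rows was 31.4%. The shares also differed between the experiments. In Ago1 miR-1006-3p had 53.2% in experiment 2 and 29.0% in experiment 1, and miR-1003-3p had 48.9% in experiment 2 and 31.2% in experiment 1. miR-1004-5p had 12.6% in experiment 2 and 25.0% in experiment 1, and its place among the rows differed with it. In the Ago2 sums the shares ran from 6.59% for miR-1015-3p and 12.8% for miR-1010-3p to 60.8% for miR-1006-3p and 97.1% for miR-1008-5p (34 of 35 reads). The median over miRNA rows in Ago2 was 29.3%. Of the 4 rows with enough Ago2 libraries, none was called between Ago2 and Ago1 (0 of 4, exact permutation tests, adjusted p = 0.41 to 0.68, the lowest unadjusted p was 0.10). miR-1004-3p and miR-1013-3p had no row in the 21-nt table.

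The 21-nt share of miR-1010-3p in Ago1 was 5.34 to 21.3% (median 10.9%) at 35 d and 4.17 to 14.5% (median 7.58%) at 5 d. It was higher at 35 d in 8 of 8 pairs of the same genotype, sex and experiment, by 3.89 points on average. Over 1296 arrangements of the age labels the exact permutation p was 0.046, and 0.139 after adjustment over the 6 rows tested. With the pairs as blocks an exact sign-flip test gave p = 0.0078, the smallest 8 pairs allow, and 0.047 after adjustment. The share was also higher in males (6.91 to 21.3%) than in females (4.17 to 10.4%) in 8 of 8 pairs and higher in experiment 2 (7.51 to 21.3%) than in experiment 1 (4.17 to 15.97%) in 8 of 8 pairs. miR-1017-3p had a share of 15.4 to 64.3% at 35 d and 16.7 to 40.4% at 5 d (12.9 points, exact permutation p = 0.032, adjusted p = 0.139, higher in 6 of 8 pairs).

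Reads mapped to the dm6 genome gave whole hairpins, including mirtrons without an arm row. There mir-1014 had 1563 reads and mir-1007 had 165. For most hairpins the total was 1.01 to 1.10 times that of the arm rows. It was larger for mir-1004 (1598 reads, 1.26 times), mir-1012 (5455 reads, 1.62 times) and mir-1013, with 3995 reads against 821 in its 3p row (4.87 times). From which part of the hairpin the further reads of mir-1013 come was not tested.

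These fits have another denominator, all reads of the dm6 table, which held 497380 to 3894561 reads in Ago2 libraries and 705569 to 2323765 reads in Ago1 libraries. Its median was 1166480.5 reads in Ago2 libraries and 1547161 reads in Ago1 libraries. For the arm rows the median library size was 111162 reads in Ago2 and 2381815 reads in Ago1. Against the dm6 denominator, all 11 of 11 tested hairpins were called for Ago2 over Ago1 with edgeR, beside 53% of 1297 transcripts. All were lower, beside 10.9% of transcripts. The log2 ratios ran from -4.87 ± 0.39 for mir-1010 to -1.63 ± 0.49 for mir-1008. mir-1012 had a median of 14.6 RPM of the dm6 table in Ago2 libraries and 194.5 in Ago1 libraries (-3.65 ± 0.35), so its near-equal medians hold for the table of arms only. mir-1004 as a whole was at -3.09 ± 0.35. These ratios include the change of denominator. The background was all dm6 transcripts tested, and other miRNA hairpins were not set apart. Whether the mirtrons were lower in Ago2 than other miRNA hairpins was therefore not tested here.

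For females over males in Ago1, 8 of 11 hairpins were called with edgeR, beside 39.9% of 1212 transcripts, all lower in females, beside 16.9% of transcripts. They included mir-1010 (-1.91 ± 0.48), mir-1006 (-1.37 ± 0.38) and mir-1013 (-1.58 ± 0.34), whose arm rows were not called. In Ago2, 5 of 7 hairpins were called, beside 63.4% of 1366 transcripts, all lower in females, beside 39% of transcripts. For 35 d over 5 d in Ago2 0 of 7 were called (0 at an unadjusted p under 0.05), beside 0.732% of 1366 transcripts, and for dFOXO-null over wDah in Ago2 0 of 7 (0 at an unadjusted p under 0.05), beside 1.46%.

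In Ago1 mir-1014 had 19.0 to 129 RPM of the dm6 table (median 94.5) in dFOXO-null libraries and 10.0 to 124 (median 27.0) in wDah libraries. Its log2 ratio was 1.13 ± 0.46 (edgeR unadjusted p = 0.026, adjusted p = 0.27). It was the 1 of 11 hairpins with an unadjusted p under 0.05, and 0 of 11 were called, beside 0.248% of 1212 transcripts. For 35 d over 5 d 0 of 11 hairpins were called with edgeR and 0 had an unadjusted p under 0.05, beside 0.248% of 1212 transcripts.

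Of the other rows at intron ends, miR-2535b-3p was lower in Ago2 than in Ago1 (log2 ratio -3.69 ± 1.34, edgeR adjusted p = 0.023) and miR-4919-3p was lower in females than in males in Ago1 (-1.06 ± 0.29, edgeR adjusted p = 0.0051). miR-1009-3p passed neither test (Ago2 over Ago1 -1.07 ± 0.60, edgeR adjusted p = 0.14, and females over males -0.28 ± 0.32, edgeR adjusted p = 0.46).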

How the data were processed

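The authors trimmed adapters with Trim Galore, reverse-complemented the reads, kept those of up to 25 nt or of exactly 21 nt, and aligned them with sR_bowtie, reporting all valid alignments with up to 1 mismatch, to mature miRNAs, transposons and spike-ins or to dm6, so a read can count at several rows. The values used are the deposited counts of reads per row from featureCounts, not normalized. The authors' normalized tables, in percent of mapped reads, were not used here. The reads carry no molecular identifiers.

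As library size served all mapped reads of the table, spike-ins left out. Rows averaging at least 5 reads were tested with edgeR 4.0.16 quasi-likelihood fits in R 4.3.3, with 1 mean per group, contrasts averaged over the other factors, and Benjamini-Hochberg adjustment over all rows of the table (threshold 0.05). DESeq2 1.42.0 and TMM factors were alternatives. Fits within 1 experiment had additive terms for the factors in place of group means, since each group then has 1 library. Permutation tests of shares (two-sided) ran in SciPy 1.17.1 under Python 3.11.15, over libraries with at least 10 reads (at least 20 as an alternative). The libraries of a group are the experiments of the labels, called 2 biological replicates in the design. No 2 replicates were copies (lowest chi-square per degree of freedom 12.6).

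Per the labels, 35 d and 5 d flies of a genotype and replicate number came from the same parents. Their deviations from the group means correlated with r = 0.43 to 0.66 in Ago1 and -0.05 to 0.42 in Ago2. Libraries without shared parents were not compared, so these values cannot be told apart from the general difference between experiments. The replicate number was used as a block in an alternative fit. Sequences, introns and coordinates were read from the RefSeq genome and annotation of release 6, where 195 of 209 miRNA rows had a match. All member rows are named. Other rows are named where their hairpin ends at intron ends, where they share a seed with a member or enter the testis list, or as the 3 most like miR-1010-3p. The members and lists were chosen with earlier results of these data known.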

Additional observations from a re-analysis of the deposited data

Results flagged for a closer look

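In 20 groups of 8 libraries (10 rows in Ago1 females and males), 3 rows had 1 library far from the others, all in wDah males of 35 d. Chance flags about 1 in 20 groups of 8 interchangeable normal values. Each group here mixes genotypes, ages and experiments, and the rows share libraries, so that rate does not apply to these flags. miR-1003-3p was at 60.3 RPM in experiment 1, with the next library at 41.9 RPM. miR-1010-3p was at 967 RPM in experiment 1, with the next at 499 RPM. miR-1008-5p was at 6.97 RPM in experiment 2, with the next at 3.94 RPM.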

How the results depend on the processing

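No called result of the arm rows reversed under the alternatives run, the dm6 table apart. For Ago2 over Ago1, where 6 members were called, 2 were called with miRNA reads as library size and 3 without the 4 shallow female Ago2 libraries of experiment 1 (chosen after seeing the data). Leaving out 1 library gave 3 to 6, with 3 without the dFOXO-null or the wDah female Ago2 library of 5 d and experiment 2. With the replicate block 5 were called, and miR-1003-3p was no longer among them (-1.44, edgeR adjusted p = 0.091). For females over males in Ago1, where 4 were called, DESeq2 called 8, the replicate block 7, and leaving out 1 library 2 to 5, with 2 without the dFOXO-null male Ago1 library of 5 d and experiment 1. For females over males in Ago2, where 2 were called, the fit without a filter on low counts called 4 of 10, and leaving out 1 library gave 1 to 2, with 1 without the wDah male library of 5 d and experiment 2. The 5p share of mir-1004 differed by 16.7 points with at least 20 reads a library (no test), 21.9 points in males alone, 25.1 points with the replicate block, 25.1 points in experiment 1 and 25.4 points in experiment 2 (no test in either). The 21-nt shares gave 1 call in experiment 1 alone (miR-1012-3p, 6.38 points, exact permutation adjusted p = 0.040), and the replicate block gave 1 call between ages (miR-1010-3p, exact adjusted p = 0.047). In the fits of abundance, 0 members were called for age and genotype under every alternative run. The dm6 table (chosen after seeing the data) called 11 of 11 hairpins for Ago2 over Ago1 and 8 of 11 for females over males in Ago1. Those fits have another denominator, and other miRNA hairpins were not set apart as a background. There mir-1004 and mir-1008 were called lower in Ago2 as whole hairpins, while miR-1004-5p was called higher among the arm rows. Where not stated, the cause of a change was not tested. In Ago2, up to 98.0 RPM is within what a count of 0 allows, so most members are not measured library by library.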
